A study of Mus musculus with 18 samples.

Results

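The 40 genes described here encode the enzymes, carriers and regulators with which cells handle reactive oxygen: superoxide dismutases and catalase, glutathione peroxidases, peroxiredoxins, thioredoxins, the enzymes of glutathione synthesis and recycling, NRF2 and its regulators, and several single proteins of related function. They were taken by symbol from a list of 40, out of the 32285 genes of the count table, and compared over 3 types of kidney tissue. Of these, 39 passed the filter on low counts that left 16034 genes to test. Gpx2, the gastrointestinal-type glutathione peroxidase, had 29 counts in all 18 libraries together and was not tested.

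Superoxide made by mitochondria and oxidases is turned into hydrogen peroxide by superoxide dismutases. Hydrogen peroxide is then removed by catalase in peroxisomes, by glutathione peroxidases that spend glutathione, and by peroxiredoxins that are recharged by thioredoxin. The transcription factor NRF2, encoded by Nfe2l2, is held back by KEAP1 and switches on many of these genes when it is released. Kidney tubules, the proximal tubule above all, are rich in mitochondria and peroxisomes and carry much of this machinery, and the proximal tubule is the known main source of the plasma glutathione peroxidase GPX3.

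All tissue came from male C57BL/6 mice called iKspCre-Pkd1del in the labels, in which a tamoxifen-inducible, kidney-specific Cre removes exons 2 to 11 of floxed Pkd1, the gene most often mutated in human polycystic kidney disease. Tamoxifen was given by gavage at 12.5 mg/kg on postnatal days 18 and 19, and kidneys were taken in the mild cystic phase and frozen. From each of 3 kidneys, regions were dissected as cystic with high signal for the macrophage protein F4/80 (F4/80-high), cystic with low F4/80 signal (F4/80-low) and non-cystic. Each kidney gave 2 libraries for each region type, 6 for F4/80-high, 6 for F4/80-low and 6 for non-cystic. The labelled age was 269 for kidneys 1 and 3 and 297 for kidney 2, with no unit. All 3 region types were Pkd1-deleted tissue, so the non-cystic regions are not wild type, and the labels do not say whether the numbered kidneys came from separate mice.

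Library totals were 5841975 to 8662288 counts in F4/80-high, 7186518 to 9188813 in F4/80-low and 5366651 to 9002054 in non-cystic regions. The 40 genes took 1.30 to 4.65% of a library's counts in F4/80-high, 5.24 to 7.84% in F4/80-low and 5.47 to 8.29% in non-cystic regions, and Gpx3 alone took 0.295 to 3.20% in F4/80-high, 2.86 to 5.95% in F4/80-low and 3.71 to 6.36% in non-cystic regions. Adgre1, which encodes F4/80, averaged 53.9 CPM (counts scaled to a fixed library size) in F4/80-high tissue, 6.55 CPM in F4/80-low tissue and 2.56 CPM in non-cystic tissue, which checks the dissection. Pkd1 averaged 9.50 CPM in F4/80-high tissue, 7.16 CPM in F4/80-low tissue and 6.31 CPM in non-cystic tissue, but its count covers exons outside the deleted stretch and so checks nothing. The summed level of 14 proximal tubule markers was 403 to 9803 CPM in F4/80-high, 24811 to 60726.5 in F4/80-low and 27343 to 56563 in non-cystic libraries, with none of the 14 at 0. The summed level of 16 macrophage markers was 3012 to 8044 CPM in F4/80-high, 315 to 1071 CPM in F4/80-low and 110.0 to 233 CPM in non-cystic libraries, again with none at 0. Mitochondrially encoded genes took 1.49 to 4.06% of counts in F4/80-high, 7.71 to 11.1% in F4/80-low and 10.6 to 15.4% in non-cystic libraries.

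Levels below are CPM scaled by the trimmed mean of M values (TMM), summed over the 2 libraries that each kidney gave per region type, in the order kidney 1, 2 and 3. Differences are log2 fold changes ± standard error (SE) over 3 kidneys, with the kidney as a block, and a gene was called when its edgeR quasi-likelihood p, adjusted by the Benjamini-Hochberg method over all 16034 genes, was below 0.05. The library kit does not mark the strand, and 11 of the genes overlap a gene on the other strand, so their counts may include its reads: Prdx2, Prdx5, Txnrd2, Gclm, Gss, Keap1, Sqstm1, Hmox2, Mt2, Selenop and Ucp2.

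Most of the antioxidant genes were lower in F4/80-high cystic regions than in non-cystic regions. Of the 39 tested, 24 fell, 6 rose and 9 were not called. Over all tested genes 19.5% were called lower and 19.7% higher, so the share of these genes that fell, 61.5%, was above the background and the share that rose, 15.4%, was not. The median log2 fold change was -1.21 for the 39 genes and 0.04 for all genes tested. All 24 that fell did so in 3 of 3 kidneys, and their 3 F4/80-high sums did not overlap the 3 non-cystic sums. The same sums gave the calls, so this adds no support, and the share over all genes was not counted. The 6 that rose were Gpx7, Gpx8, Ucp2, Selenow, Mt2 and Nfe2l2. In bulk RNA from dissected tissue, fewer cells of a type and less RNA per cell cannot be told apart. In the same comparison 13 of the 14 proximal tubule markers fell, with a median log2 fold change of -3.17, and 16 of 16 macrophage markers rose, with a median of 4.41. Other marker lists moved as well. The called markers fell for distal convoluted and connecting tubule (4 of 6, median -2.32), thick ascending limb (3 of 6, median -1.51) and erythroid cells (6 of 6 tested, median -2.34). Of 10 tubular injury markers 9 rose, with a median of 5.15. None of these 4 lists had a call in the opposite direction. The part of cell types or injury in the differences was not tested. Scaling by total counts moved the median of all genes by 0.61 on the log2 scale and the background to 41.1% higher and 9.16% lower. On that scale 8 of the 39 genes rose and 19 fell, and their median stayed -1.26 from that of all genes, against -1.25 with TMM. Prdx1, Prdx6, Srxn1, Txnrd1 and Txnrd2 lost their calls on that scale, and no called gene changed direction under any of 34 alternative settings.

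**Figure D1:**
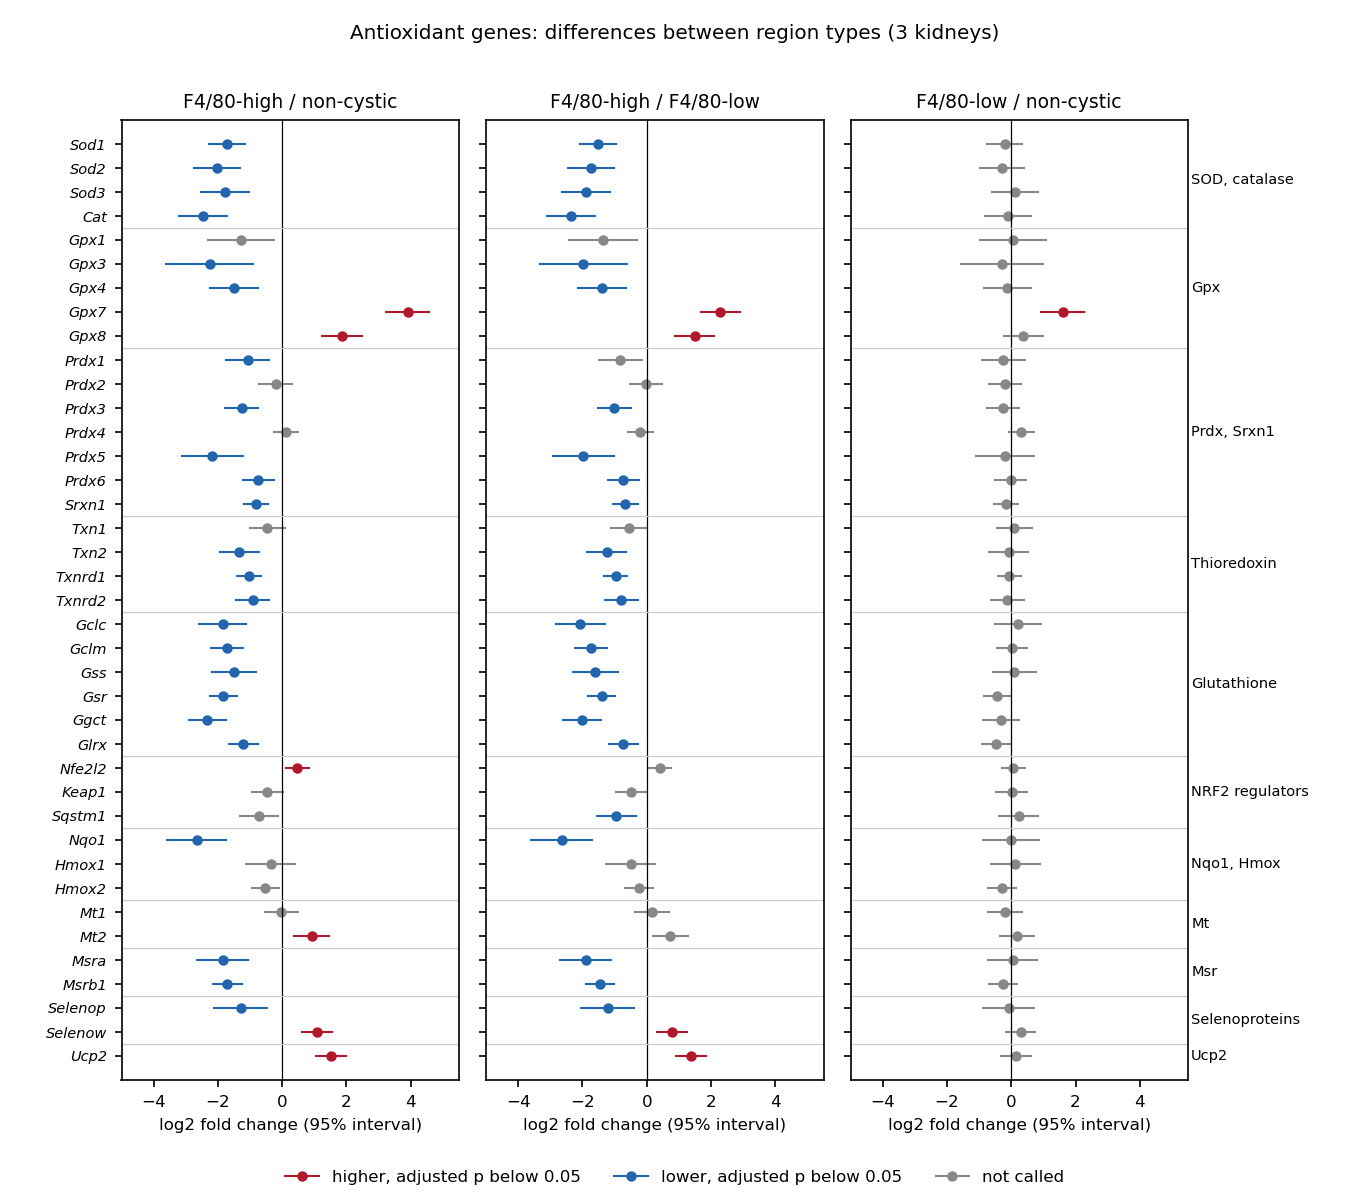
Log2 fold changes of the 39 tested genes between region types, with 95% intervals over 3 kidneys, grouped by role: F4/80-high over non-cystic (left), F4/80-high over F4/80-low (middle) and F4/80-low over non-cystic (right). The left and middle panels have 24 genes each called lower (blue), and the right panel has Gpx7 as its single call (red).

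Superoxide dismutases and catalase fell together: 4 of 4 were called lower in F4/80-high than in non-cystic regions. Cat (chromosome 2, 103453849 to 103485160), the peroxisomal enzyme that splits hydrogen peroxide, had 151, 147 and 72.2 CPM in F4/80-high, 576, 522 and 761 CPM in F4/80-low and 770.0, 608 and 647 CPM in non-cystic regions. Each F4/80-high value was below every value of the other regions, while F4/80-low and non-cystic values overlapped. The log2 fold change was -2.47 ± 0.34 against non-cystic regions (adjusted p = 0.000575) and -2.36 ± 0.34 against F4/80-low regions (adjusted p = 0.00213). Sod2 (chromosome 17, 13006846 to 13040063), the dismutase of the mitochondrial matrix, had 166, 191 and 75.6 CPM in F4/80-high, 416, 452 and 503 CPM in F4/80-low and 660.3, 539 and 504 CPM in non-cystic regions. It fell by 2.03 ± 0.32 on the log2 scale against non-cystic regions (adjusted p = 0.00123). Of the 50-base exon stretches of Sod2, 21% also occur in another gene, AC166110.4 among them, so its reads are uncertain. The cytosolic copper-zinc dismutase Sod1 had 63.0, 79.6 and 53.7 CPM in F4/80-high, 136, 186 and 242 CPM in F4/80-low and 229.7, 217 and 196 CPM in non-cystic regions. Its F4/80-high values were again below all others, with a log2 fold change of -1.72 ± 0.25 against non-cystic regions (adjusted p = 0.000809). Sod3, the secreted dismutase that binds to matrix, had 119, 209 and 66.1 CPM in F4/80-high, 533, 404 and 413 CPM in F4/80-low and 563, 433 and 296 CPM in non-cystic regions, a log2 fold change of -1.77 ± 0.33 against non-cystic regions (adjusted p = 0.00269). Kidney 3 had the lowest F4/80-high value of all 4 genes.

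**Figure D2:**
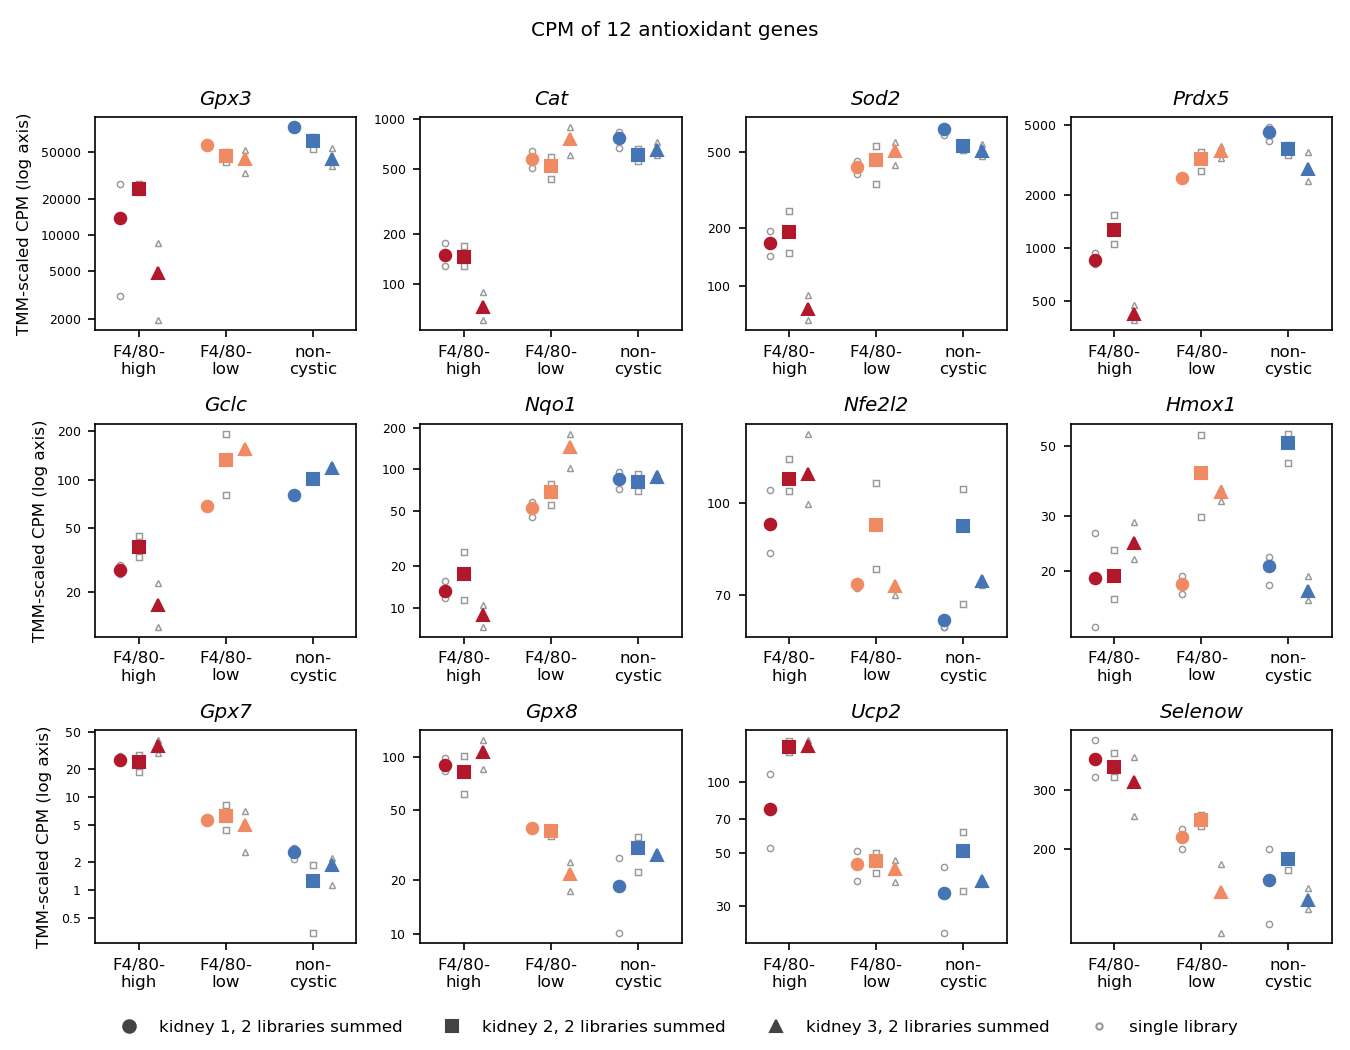
TMM-scaled CPM (log axis) of 12 of the genes by region type: filled symbols are the 2 libraries of a kidney summed (circle, kidney 1; square, kidney 2; triangle, kidney 3) and small open symbols are single libraries. Gpx3, Cat, Sod2, Prdx5, Gclc and Nqo1 are lower in all 3 F4/80-high sums than in any other sum, and Gpx7, Gpx8, Ucp2 and Selenow are higher in all 3.

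The glutathione peroxidases moved in both directions: of 5 tested, the selenoenzymes Gpx3 and Gpx4 fell in F4/80-high against non-cystic regions, Gpx7 and Gpx8 of the endoplasmic reticulum rose, and Gpx1 was not called. Gpx3 (chromosome 11, 54902453 to 54910377), which encodes the secreted plasma enzyme, had 13999, 24365 and 4839 CPM in F4/80-high, 56813, 46150.2 and 43503 CPM in F4/80-low and 80259, 61529 and 43806 CPM in non-cystic regions. All 3 F4/80-high values lay below the others, with kidney 3 the lowest and kidney 2 the highest. The log2 fold change was -2.26 ± 0.60 against non-cystic regions (adjusted p = 0.0147) and -1.98 ± 0.60 against F4/80-low regions (adjusted p = 0.0396). Leaving out either F4/80-high library of kidney 1 gave -1.91 or -2.87 against non-cystic regions, both called, while the call against F4/80-low regions was lost on leaving out any of 5 single libraries, 3 F4/80-high and 2 F4/80-low (adjusted p = 0.0528 to 0.0762). Gpx4, which reduces lipid peroxides in membranes, had 256, 452 and 232 CPM in F4/80-high, 603, 827 and 948 CPM in F4/80-low and 1052, 829 and 698 CPM in non-cystic regions, with a log2 fold change of -1.50 ± 0.33 against non-cystic regions (adjusted p = 0.00614). Reads of Gpx4 are uncertain, since 34.7% of its 50-base exon stretches also occur in another gene, Gpx4-ps2 among them. Gpx1, the cytosolic enzyme, had 2901, 5268 and 2029 CPM in F4/80-high, 5972, 7887 and 10554 CPM in F4/80-low and 9652, 8372 and 5809.6 CPM in non-cystic regions. Its sums did not overlap between F4/80-high and non-cystic regions, but the log2 fold change of -1.29 ± 0.46 was not called (adjusted p = 0.0508), although 15 of 34 alternative settings called it.

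Gpx7 and Gpx8 encode peroxidases of the endoplasmic reticulum that lack selenocysteine. Gpx7 (chromosome 4, 108400390 to 108406961) had 25.0, 23.7 and 35.3 CPM in F4/80-high, 5.64, 6.24 and 4.96 CPM in F4/80-low and 2.56, 1.24 and 1.86 CPM in non-cystic regions. The 3 region types did not overlap, and F4/80-low lay between F4/80-high and non-cystic in every kidney. In F4/80-high regions it rose by 3.90 ± 0.30 on the log2 scale over non-cystic regions (adjusted p = 3.81e-05) and by 2.29 ± 0.27 over F4/80-low regions (adjusted p = 0.00132). Gpx7 rests on few reads in non-cystic tissue, down to 2 counts in a library, and its mean level is below the minimum of the rule for named genes, so it was singled out after its values were seen. Gpx8 (chromosome 13, 113042753 to 113046410) had 89.6, 82.3 and 106 CPM in F4/80-high, 39.7, 38.2 and 21.9 CPM in F4/80-low and 18.6, 30.5 and 28.0 CPM in non-cystic regions. It rose by 1.86 ± 0.27 on the log2 scale against non-cystic regions (adjusted p = 0.000932) and by 1.49 ± 0.27 against F4/80-low regions (adjusted p = 0.00566). Summed CPM of 8 fibroblast markers, all detected, moved the same way, at 681 to 1988 in F4/80-high, 194 to 563 in F4/80-low and 57.7 to 97.7 in non-cystic libraries, and their part in the rise of Gpx7 and Gpx8 was not tested.

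Per kilobase of exon, Gpx3 made up 71.9% ± 9.04 (SD, n = 3 kidneys) of the glutathione peroxidase counts in F4/80-high, 81.2% ± 6.06 in F4/80-low and 84.8% ± 0.836 in non-cystic regions. Gpx1 made up 24.5% ± 6.87 in F4/80-high, 17.3% ± 5.71 in F4/80-low and 13.8% ± 0.757 in non-cystic regions. In F4/80-high tissue the Gpx3 share was 77.3% in kidney 1, 77.0% in kidney 2 and 61.5% in kidney 3, and the value of kidney 1 sums 2 unlike libraries, with Gpx3 at 3128 and 26777 CPM. Gpx8 made up 1.21% ± 0.990 in F4/80-high, 0.0957% ± 0.0267 in F4/80-low and 0.0666% ± 0.0298 in non-cystic regions. These shares were not tested, and they depend on the exon length, which counts every annotated exon of a gene.

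**Figure D3:**
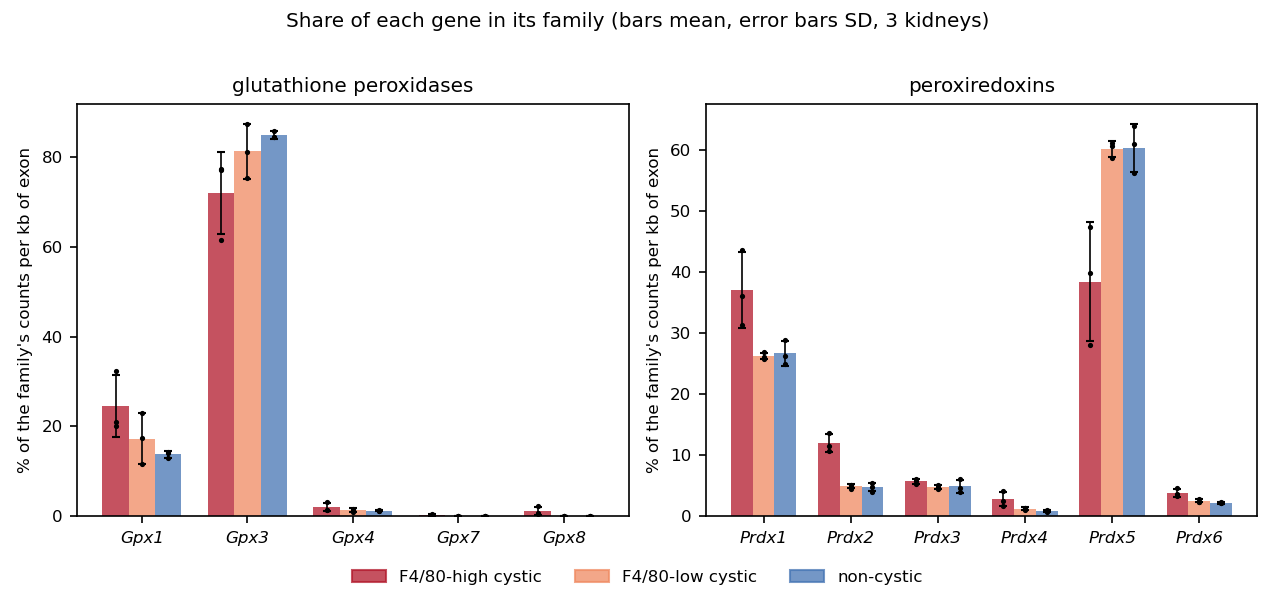
Share of each gene in the summed counts per kilobase of exon of its family, for glutathione peroxidases (left) and peroxiredoxins (right): bars are means and error bars SD over 3 kidneys, with each kidney as a point. Gpx3 and Prdx5 hold the largest mean share in every region type, and Prdx5 is lower in F4/80-high (38.5%) than in F4/80-low (60.2%) and non-cystic (60.4%) regions. In F4/80-high the mean share of Prdx1 (37.1%) is close to that of Prdx5, and in kidney 3 Prdx1 is ahead (43.7% against 28.1%).

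Peroxiredoxins, which reduce peroxides with a reactive cysteine, moved unequally: Prdx1, Prdx3, Prdx5 and Prdx6 fell in F4/80-high against non-cystic regions, while Prdx2 and Prdx4 were not called. Prdx5 (chromosome 19, 6906697 to 6910106), found in mitochondria, peroxisomes and cytosol, had 857, 1260.4 and 423 CPM in F4/80-high, 2501, 3175 and 3554 CPM in F4/80-low and 4546, 3619 and 2785 CPM in non-cystic regions. The log2 fold change was -2.17 ± 0.42 against non-cystic regions (adjusted p = 0.00329), and 15.5% of its exon stretches are shared with Trmt112 on the other strand. Prdx3, the mitochondrial peroxiredoxin, had 91.0, 98.0 and 60.4 CPM in F4/80-high, 150.4, 159 and 192 CPM in F4/80-low and 197, 189.9 and 209.6 CPM in non-cystic regions, with a log2 fold change of -1.26 ± 0.23 against non-cystic regions (adjusted p = 0.00237). In both genes the F4/80-high values were below all others. The cytosolic Prdx1 had 1104, 1189 and 935 CPM in F4/80-high, 1629, 1907 and 2176 CPM in F4/80-low and 2517, 2222 and 2041 CPM in non-cystic regions. It was called against non-cystic regions (-1.07 ± 0.30, adjusted p = 0.0183) and not against F4/80-low regions (-0.83 ± 0.30, adjusted p = 0.0710). Prdx6, which also has phospholipase activity, had 179, 198 and 155 CPM in F4/80-high, 274, 284 and 316 CPM in F4/80-low and 339, 314 and 242 CPM in non-cystic regions, the smallest of the called falls at -0.75 ± 0.22 (adjusted p = 0.0204).

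Prdx2, a further cytosolic peroxiredoxin, had 355, 407 and 293 CPM in F4/80-high, 308, 384 and 379 CPM in F4/80-low and 411, 412 and 388 CPM in non-cystic regions, a log2 fold change of -0.21 with a 95% interval of -0.71 to 0.29. Prdx4, the peroxiredoxin of the endoplasmic reticulum, had 54.8, 46.6 and 60.7 CPM in F4/80-high, 58.4, 50.2 and 78.3 CPM in F4/80-low and 61.3, 39.1 and 49.7 CPM in non-cystic regions, a log2 fold change of 0.12 with an interval of -0.27 to 0.51. Region types overlapped for both genes, and these intervals do not reach the estimates for Prdx3 and Prdx5. Per kilobase of exon, Prdx5 was 38.5% ± 9.72 (SD, n = 3) of the family in F4/80-high, 60.2% ± 1.33 in F4/80-low and 60.4% ± 3.93 in non-cystic regions, and Prdx2 was 12.0% ± 1.50 in F4/80-high, 4.93% ± 0.341 in F4/80-low and 4.81% ± 0.721 in non-cystic regions. Prdx1 was 37.1% ± 6.20 in F4/80-high, 26.3% ± 0.537 in F4/80-low and 26.7% ± 2.05 in non-cystic regions. The peroxiredoxin shares were not tested. Srxn1 encodes sulfiredoxin, which rescues overoxidized peroxiredoxins. It had 19.3, 23.5 and 16.1 CPM in F4/80-high, 23.3, 38.5 and 32.0 CPM in F4/80-low and 31.1, 40.2 and 32.4 CPM in non-cystic regions, with a log2 fold change of -0.82 ± 0.17 against non-cystic regions (adjusted p = 0.00477). Its F4/80-high values were below all non-cystic values and overlapped those of F4/80-low regions.

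In the thioredoxin system, both reductases and the mitochondrial thioredoxin fell and the cytosolic thioredoxin was not called. Txn2, the mitochondrial form, had 159, 286 and 145 CPM in F4/80-high, 381, 504 and 465 CPM in F4/80-low and 562, 497 and 374 CPM in non-cystic regions (log2 fold change -1.33 ± 0.28 against non-cystic, adjusted p = 0.00446). Txn1, the cytosolic form, had 206, 224 and 159 CPM in F4/80-high, 227, 285 and 357 CPM in F4/80-low and 291, 252 and 266 CPM in non-cystic regions (-0.46 ± 0.25, adjusted p = 0.167). All 3 F4/80-high sums of Txn1 were below the others, and single libraries overlapped. Txnrd1, the cytosolic selenoenzyme that reduces thioredoxin with NADPH, had 27.2, 33.8 and 40.4 CPM in F4/80-high, 53.2, 71.1 and 74.3 CPM in F4/80-low and 63.6, 75.4 and 65.1 CPM in non-cystic regions (-1.03 ± 0.16, adjusted p = 0.00123). Here kidney 3 had the highest F4/80-high value, unlike in most genes that fell. Txnrd2, the mitochondrial reductase, had 11.2, 17.1 and 11.6 CPM in F4/80-high, 19.9, 23.6 and 24.9 CPM in F4/80-low and 31.0, 25.5 and 18.8 CPM in non-cystic regions (-0.92 ± 0.23, adjusted p = 0.0110).

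All 6 genes of glutathione synthesis, recycling and use as a thiol donor fell in F4/80-high regions, against non-cystic and against F4/80-low regions. Ggct (chromosome 6, 54982580 to 54992950), the gamma-glutamylcyclotransferase of glutathione breakdown, had 15.8, 23.4 and 13.4 CPM in F4/80-high, 48.8, 76.0 and 83.1 CPM in F4/80-low and 95.1, 106 and 61.1 CPM in non-cystic regions, the largest fall of the 6 against non-cystic regions (-2.33 ± 0.26, adjusted p = 0.000243). Gclc (chromosome 9, 77754535 to 77794485), the catalytic subunit of the rate-limiting enzyme of glutathione synthesis, had 27.5, 38.1 and 16.8 CPM in F4/80-high, 68.7, 132 and 156 CPM in F4/80-low and 80.0, 102 and 119 CPM in non-cystic regions. The log2 fold change of Gclc was -1.86 ± 0.33 against non-cystic regions (adjusted p = 0.00254) and -2.06 ± 0.33 against F4/80-low regions (adjusted p = 0.00387). Gclm, the modifier subunit of the same enzyme, had 38.6, 37.9 and 33.6 CPM in F4/80-high, 94.8, 110.0 and 174 CPM in F4/80-low and 114, 109 and 146 CPM in non-cystic regions (-1.71 ± 0.22 against non-cystic, adjusted p = 0.000424). The 3 F4/80-high values of Gclm were close to one another, while those of Gclc were lowest in kidney 3.

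Gsr, the reductase that restores oxidized glutathione, had 28.5, 28.1 and 23.5 CPM in F4/80-high, 64.9, 64.8 and 83.6 CPM in F4/80-low and 101, 80.0 and 107 CPM in non-cystic regions (-1.83 ± 0.19 against non-cystic, adjusted p = 0.000140). Gss, the synthetase that completes glutathione, had 104, 146 and 77.3 CPM in F4/80-high, 283, 278 and 405 CPM in F4/80-low and 389.9, 278 and 251 CPM in non-cystic regions (-1.50 ± 0.31, adjusted p = 0.00422). Glrx, the cytosolic glutaredoxin, had 34.7, 33.6 and 21.2 CPM in F4/80-high, 51.4, 47.4 and 48.6 CPM in F4/80-low and 69.8, 59.6 and 74.8 CPM in non-cystic regions (-1.21 ± 0.20, adjusted p = 0.00155). For all 3 genes no F4/80-high sum reached any F4/80-low or non-cystic sum. In all 3 kidneys Gsr and Glrx also had less in F4/80-low than in non-cystic tissue, with log2 fold changes of -0.43 ± 0.18 for Gsr and -0.47 ± 0.20 for Glrx, and neither was called there (adjusted p = 0.382 for both).

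Of NRF2 and its regulators, none of 3 fell in F4/80-high against non-cystic regions and 1 rose. Nfe2l2 (chromosome 2, 75675513 to 75704641) had 92.1, 109.7 and 112 CPM in F4/80-high, 73.1, 91.8 and 72.4 CPM in F4/80-low and 63.5, 91.2 and 73.8 CPM in non-cystic regions. It rose by 0.47 ± 0.16 on the log2 scale against non-cystic regions (adjusted p = 0.0426), with the highest non-cystic sum just under the lowest F4/80-high sum and single libraries overlapping. The call was lost in 15 of 34 alternative settings, leaving out any 1 kidney among them (adjusted p = 0.213, 0.162 and 0.0918 without kidney 1, 2 and 3). Keap1, the adaptor that marks NRF2 for destruction, had 13.7, 14.9 and 21.1 CPM in F4/80-high, 22.9, 23.9 and 22.0 CPM in F4/80-low and 22.9, 26.4 and 18.7 CPM in non-cystic regions (-0.46 ± 0.22, adjusted p = 0.120). Sqstm1, the autophagy receptor p62 that binds KEAP1, had 288, 387 and 259 CPM in F4/80-high, 439, 649.5 and 685 CPM in F4/80-low and 493, 667 and 378 CPM in non-cystic regions. It fell against F4/80-low regions (-0.94 ± 0.27, adjusted p = 0.0306) and missed the threshold against non-cystic regions (-0.71 ± 0.27, adjusted p = 0.0570).

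Nqo1 (chromosome 8, 107388225 to 107403206), a quinone reductase and classic NRF2 target, showed the largest fall of all 39 genes. It had 13.3, 17.6 and 8.95 CPM in F4/80-high, 52.2, 68.4 and 144 CPM in F4/80-low and 85.8, 80.6 and 88.1 CPM in non-cystic regions. Non-cystic kidneys lay close together, F4/80-low kidneys spread from below to above them, and all F4/80-high values were far below both. The log2 fold change was -2.66 ± 0.40 against non-cystic regions (adjusted p = 0.00175) and -2.65 ± 0.41 against F4/80-low regions (adjusted p = 0.00445). Hmox1, the inducible heme oxygenase, had 19.1, 19.4 and 24.6 CPM in F4/80-high, 18.3, 41.0 and 35.6 CPM in F4/80-low and 20.8, 51.1 and 17.4 CPM in non-cystic regions. No comparison of Hmox1 was called, its interval for F4/80-high against non-cystic was -1.14 to 0.41, and the ratio pointed down in kidneys 1 and 2 and up in kidney 3. Hmox2, the constitutive form, had 96.3, 108 and 71.9 CPM in F4/80-high, 106, 104 and 114 CPM in F4/80-low and 137, 126 and 132 CPM in non-cystic regions (-0.53 ± 0.19, adjusted p = 0.0512). Its counts are uncertain, since 41.9% of its exon stretches are shared, mostly with Cdip1 on the other strand.

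NRF2 acts through antioxidant response elements, so the windows from 250 bases before to 50 bases after each RefSeq gene start (GRCm38.p6) were searched for the core TGACNNNGC on both strands. Windows were given for 34 of the 40 genes, and not for Gsr, Prdx6, Sod3, Hmox1, Gclc and Msra. Of all 32851 windows 12.4% held the core, and of the 44 windows of these genes 20.5% did. The 9 genes with a match were Gclm, Ggct, Mt2, Nfe2l2, Prdx1, Sod1, Srxn1, Txnrd1 and Ucp2. Of these 6 fell and 3 rose in F4/80-high against non-cystic regions, where 24 of the 39 tested genes fell and 6 rose. Whether a match goes with a call was not tested. The window of Nqo1 held none, and bases beyond the windows were not searched. The 250 bases upstream of the start are shown for 3 genes that fell, on the plus strand and with the core in capitals: Gclm (chr3:122245307-122245556), Prdx1 (chr4:116685349-116685598) and the Txnrd1 start that has a match (chr10:82858956-82859205). A match is a description of the letters and not evidence of binding.
Gclm: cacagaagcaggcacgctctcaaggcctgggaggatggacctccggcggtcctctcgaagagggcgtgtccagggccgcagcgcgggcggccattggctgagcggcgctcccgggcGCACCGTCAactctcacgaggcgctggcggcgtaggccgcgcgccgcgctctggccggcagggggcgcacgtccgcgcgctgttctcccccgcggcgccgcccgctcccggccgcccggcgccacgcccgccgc
Prdx1: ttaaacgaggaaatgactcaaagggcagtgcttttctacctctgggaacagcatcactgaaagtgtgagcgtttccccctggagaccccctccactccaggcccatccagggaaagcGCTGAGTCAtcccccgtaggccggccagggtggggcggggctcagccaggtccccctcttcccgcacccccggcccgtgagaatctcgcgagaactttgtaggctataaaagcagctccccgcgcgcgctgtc
Txnrd1: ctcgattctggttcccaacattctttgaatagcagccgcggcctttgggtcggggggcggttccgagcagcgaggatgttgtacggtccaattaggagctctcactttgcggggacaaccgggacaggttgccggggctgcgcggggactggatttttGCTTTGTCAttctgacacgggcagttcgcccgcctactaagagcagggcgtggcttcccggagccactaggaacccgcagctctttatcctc

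Mt1 and Mt2 encode metallothioneins, small cysteine-rich proteins that bind zinc and copper and scavenge radicals. Their sums were higher in kidney 2 than in the other kidneys in all 3 region types. In F4/80-high tissue that rests on 1 kidney 2 library, at 843 CPM for Mt1 and 241 CPM for Mt2. The highest of the other F4/80-high libraries had 293 CPM for Mt1 and 81.0 CPM for Mt2. Mt1 had 159, 539 and 221 CPM in F4/80-high, 141, 623 and 149 CPM in F4/80-low and 189.8, 539 and 198 CPM in non-cystic regions. Kidney 2 held 539 to 623 CPM in all 3 region types and the other kidneys 141 to 221 CPM. No comparison of Mt1 between regions was called (F4/80-high against non-cystic -0.03 ± 0.23, adjusted p = 0.935), but with total-count scaling, which moves all genes up, its fold change was 0.59 (adjusted p = 0.0438). Mt2 (chromosome 8, 94172664 to 94173568) had 44.7, 152 and 70.3 CPM in F4/80-high, 22.9, 144 and 32.3 CPM in F4/80-low and 26.8, 116 and 23.6 CPM in non-cystic regions. Within each kidney F4/80-high exceeded both other regions. It rose by 0.91 ± 0.24 against non-cystic regions (adjusted p = 0.0141), and the call was lost without kidney 1 (adjusted p = 0.0734), without kidney 3 (adjusted p = 0.0531), without 1 of the 2 F4/80-high libraries of kidney 2 (adjusted p = 0.227) and without the kidney as a block (adjusted p = 0.60). The ratio of Mt2 to Mt1 counts was 0.281, 0.283 and 0.318 in F4/80-high, 0.162, 0.231 and 0.217 in F4/80-low and 0.141, 0.215 and 0.119 in non-cystic regions, with no F4/80-high value below any other. The predicted gene Gm45774 lies over Mt2 on the other strand and shares 45.8% of its exon stretches, so the Mt2 counts are uncertain.

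Metallothionein genes are known to respond to metals through metal response elements. The pattern TGCNCNC, looser than the usual core of that element, was searched on both strands. It occurred in 51% of all windows, and 2.30% of windows held 4 or more. A match describes the letters and need not be an element. The Mt2 window held 6 and the Mt1 window 3, of which 5 in Mt2 and 1 in Mt1 lie in the upstream bases. The rest reach past the start. These counts depend on the RefSeq start used, and bases beyond the window were not searched, so they do not rank the pair. The 250 bases upstream of each RefSeq start are shown for the neighbouring pair, on the plus strand with the pattern in capitals: Mt1 (chr8:94178839-94179088) and Mt2 (chr8:94172368-94172617).
Mt1: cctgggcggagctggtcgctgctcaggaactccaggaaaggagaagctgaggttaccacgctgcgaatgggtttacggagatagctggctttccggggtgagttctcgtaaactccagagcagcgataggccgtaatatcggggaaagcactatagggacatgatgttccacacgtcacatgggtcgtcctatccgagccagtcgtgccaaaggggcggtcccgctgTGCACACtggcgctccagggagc
Mt2: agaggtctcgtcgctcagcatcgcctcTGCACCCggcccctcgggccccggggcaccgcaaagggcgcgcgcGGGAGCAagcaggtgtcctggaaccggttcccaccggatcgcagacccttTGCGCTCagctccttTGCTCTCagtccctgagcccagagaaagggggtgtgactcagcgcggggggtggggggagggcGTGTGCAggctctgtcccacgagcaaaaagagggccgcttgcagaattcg

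Both methionine sulfoxide reductases, which repair oxidized methionine in proteins, fell. Msra had 132, 184 and 61.7 CPM in F4/80-high, 381, 420.4 and 509.9 CPM in F4/80-low and 515, 430.5 and 362 CPM in non-cystic regions (-1.85 ± 0.35 against non-cystic, adjusted p = 0.00293). Msrb1, a selenoprotein, had 19.3, 36.1 and 25.7 CPM in F4/80-high, 63.7, 78.8 and 75.6 CPM in F4/80-low and 92.4, 94.7 and 72.4 CPM in non-cystic regions (-1.71 ± 0.20, adjusted p = 0.000308). In both genes every F4/80-high sum was below every other sum. The other selenoproteins moved in opposite directions. Selenop, the secreted selenium carrier, had 1339, 1329 and 761 CPM in F4/80-high, 2481, 2195 and 3335 CPM in F4/80-low and 2804, 2511 and 3127 CPM in non-cystic regions (-1.29 ± 0.36, adjusted p = 0.0183). Selenow (chromosome 7, 15917208 to 15922402), a small thioredoxin-like selenoprotein best known from muscle, had 369, 351 and 317 CPM in F4/80-high, 218, 245 and 149.7 CPM in F4/80-low and 163, 188 and 141 CPM in non-cystic regions. It was highest in F4/80-high and lowest in non-cystic tissue of every kidney, and rose by 1.09 ± 0.20 against non-cystic (adjusted p = 0.00274) and by 0.79 ± 0.20 against F4/80-low regions (adjusted p = 0.0212).

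Ucp2 (chromosome 7, 100493337 to 100502020), a carrier of the inner mitochondrial membrane linked to lower superoxide production, had 77.4, 140.2 and 142 CPM in F4/80-high, 45.1, 46.6 and 43.0 CPM in F4/80-low and 33.9, 51.3 and 38.3 CPM in non-cystic regions. F4/80-low and non-cystic values overlapped and all F4/80-high values were above them. It rose by 1.53 ± 0.21 against non-cystic (adjusted p = 0.000596) and by 1.37 ± 0.21 against F4/80-low regions (adjusted p = 0.00262). Ucp2, Gpx7, Gpx8 and Selenow, which rose in both comparisons, rose in the libraries in which the summed 16 macrophage markers were highest. The summed 8 fibroblast markers and the summed 8 T, NK and B cell markers were highest in those libraries too. The part of any of these cell types in the rise of the genes was not tested. On levels per kilobase of exon, averaged over 3 kidneys, Gpx3 (7943 CPM per kilobase), Gpx1 (2359) and Selenow (469.7) led the 39 genes in F4/80-high regions. In non-cystic regions Gpx3 (34123), Gpx1 (5513) and Prdx5 (1706) led and Selenow was at 223 CPM per kilobase. These ranks depend on the exon length, which counts every annotated exon of a gene and not the transcript in use. By CPM alone, Selenow (317 to 369) was below Prdx1 (935 to 1189) in F4/80-high regions.

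**Figure D4:**
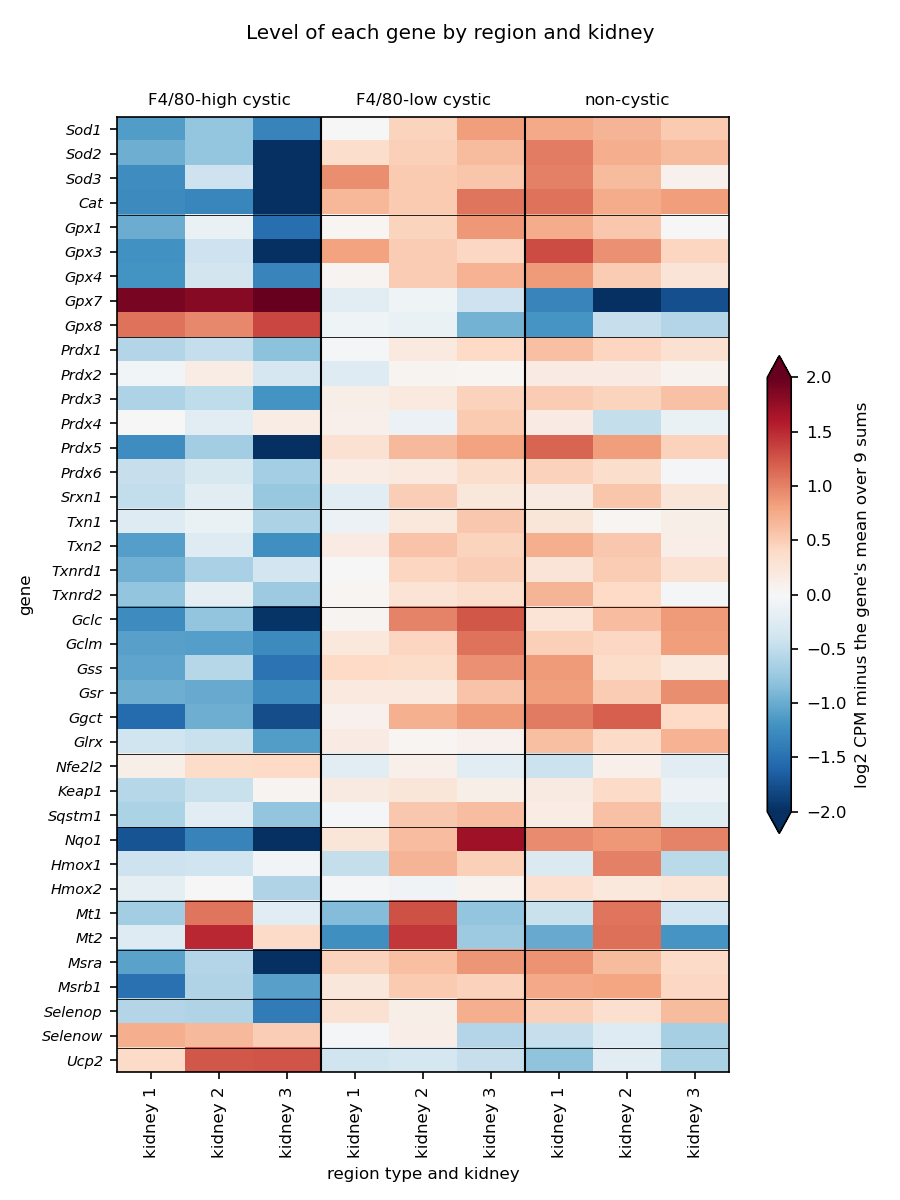
Log2 CPM of the 39 tested genes in each of the 9 sums, minus the gene's mean over the sums, with region types in blocks and kidneys as columns; the colour scale is clipped at -2 and 2. F4/80-high columns are blue for most genes and red for Gpx7, Gpx8, Selenow and Ucp2, and the kidney 2 columns are red for Mt1 and Mt2 in all 3 region types.

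F4/80-high regions were also lower in most of these genes than F4/80-low cystic regions. Of the 39 genes 24 fell, 4 rose and 11 were not called, where 14.0% of all tested genes were called lower and 10.3% higher. The share that fell, 61.5%, was above that background, and the share that rose, 10.3%, equalled it. The median log2 fold change was -0.97 for the 39 genes and 0.04 for all. Both comparisons use the same F4/80-high libraries, so they are not independent. With total-count scaling, 26.2% of all genes were called higher and 7.03% lower, and 8 of the 39 genes rose and 18 fell. Upper-quartile scaling called 13.1% of all genes higher and 11.6% lower. Without kidney 1 the fall held for 9 of the 24 genes here and for 14 of the 24 against non-cystic regions, with all the lost genes still lower. Those that lost the call against non-cystic regions were Gpx3, Gpx4, Gss, Prdx1, Prdx5, Prdx6, Selenop, Sod3, Txn2 and Txnrd2, with adjusted p values of 0.0543 to 0.163. Without kidney 2 the calls of Prdx1, Prdx6 and Selenop against non-cystic regions were lost. Against F4/80-low regions, the calls of Glrx, Gpx3, Prdx6, Selenop, Sqstm1, Srxn1 and Txnrd2 were lost without kidney 1 and also without kidney 2, as was that of Selenow (adjusted p = 0.124 without kidney 1 and 0.113 without kidney 2). Those of Gpx4, Gss, Msra, Prdx3, Prdx5, Sod2, Sod3 and Txn2 were lost when kidney 1 was left out and not when kidney 2 or 3 was, and those of Prdx6, Selenop, Srxn1 and Txnrd2 were lost without kidney 3 as well.

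Between F4/80-low cystic and non-cystic regions 1 of the 39 genes was called. Gpx7 rose by 1.61 ± 0.30 on the log2 scale (adjusted p = 0.0322), in 3 of 3 kidneys, and none of the 39 fell. Over all tested genes 1.51% were called higher and 0.0249% lower. At an unadjusted p below 0.05, 1 of the 39 genes was higher and 2 were lower (Gsr and Glrx), and the DESeq2 Wald test called 1 higher and 0 lower. The median log2 fold change of the 39 was -0.06, against 0.00 for all genes. The Gpx7 call was lost in 12 of 34 alternative settings, including without kidney 1 (adjusted p = 0.183) and without kidney 2 (adjusted p = 0.234). A miss of the threshold does not show that levels were alike: intervals reached -1.55 to 0.99 for Gpx3 and -0.88 to 0.86 for Nqo1.

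The 3 kidneys differed in the direction of the F4/80-low ratio. In kidney 1, F4/80-low tissue had less than non-cystic tissue of 33 of the 39 genes, with a median log2 ratio of -0.41. In kidney 2, 28 were lower, with a median of -0.10, and in kidney 3, 28 were higher, with a median of 0.25, while the medians of all genes were 0.03, 0.01 and 0.01. Gpx1 shows the spread, with F4/80-low at 5972 CPM against 9652 CPM for non-cystic tissue in kidney 1, and F4/80-low at 10554 CPM against 5809.6 CPM for non-cystic tissue in kidney 3. Nqo1 showed it too, with F4/80-low at 52.2 CPM against 85.8 CPM for non-cystic tissue in kidney 1, and F4/80-low at 144 CPM against 88.1 CPM for non-cystic tissue in kidney 3. The summed proximal tubule markers were 28293 CPM for F4/80-low against 46622 CPM for non-cystic tissue in kidney 1, 30368 CPM against 35521 CPM for the same regions of kidney 2, and 53655 CPM against 38430.4 CPM for those of kidney 3. Marker by marker, the median log2 ratio was -0.52 in kidney 1 and -0.51 in kidney 2, with 14 of 14 markers below 0 in each, and -0.12 in kidney 3 with 10 of 14 below 0, so most markers did not go with the sum in kidney 3. Their part in this pattern was not tested.

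**Figure D5:**
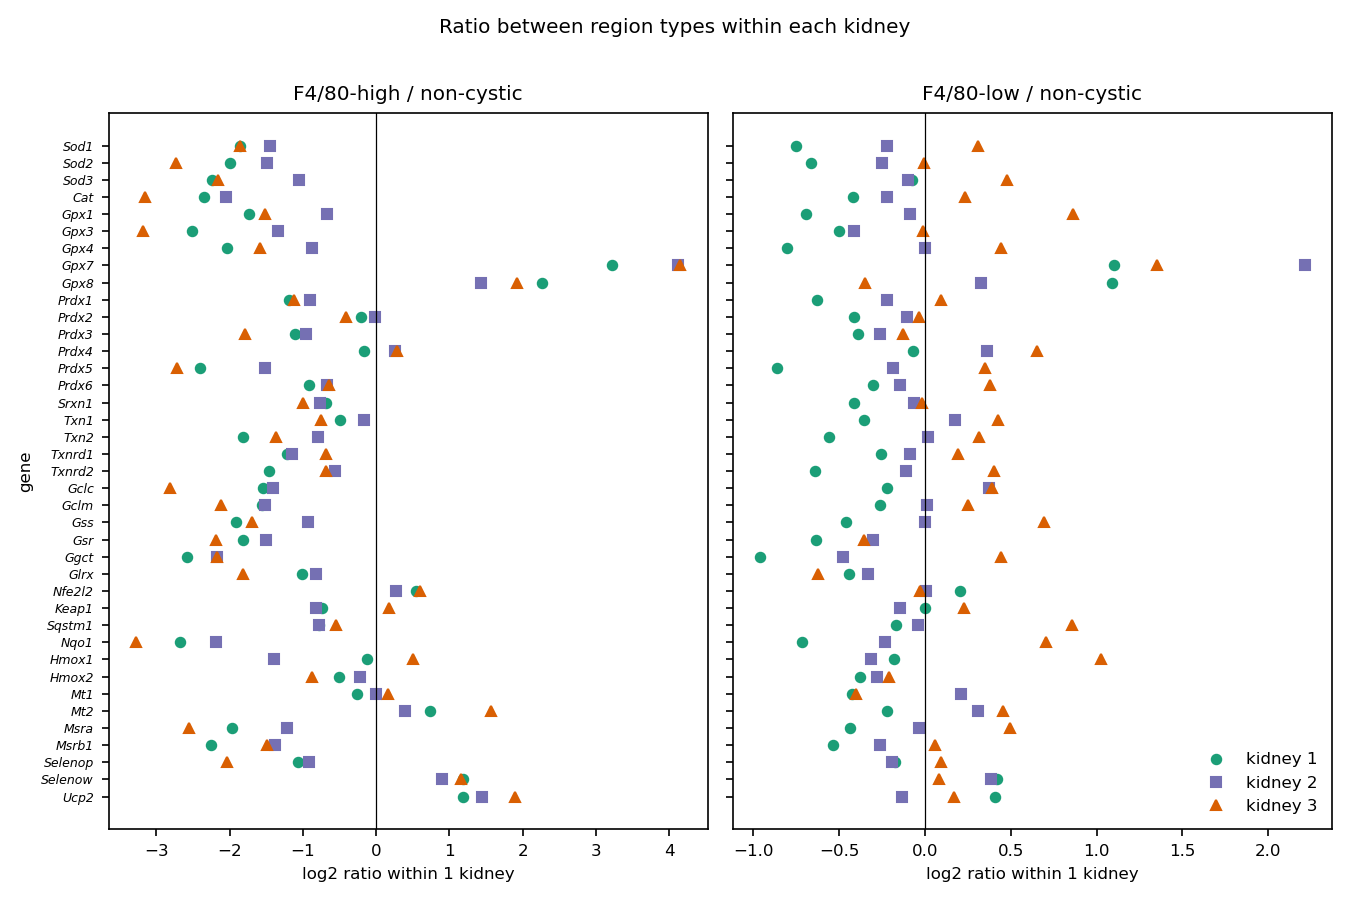
Log2 ratio of each tested gene within each kidney, for F4/80-high over non-cystic (left) and F4/80-low over non-cystic (right), with 1 symbol per kidney. On the left most genes lie below 0 in all 3 kidneys. On the right kidney 1 lies below 0 for 33 genes and kidney 3 above 0 for 28.

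Within F4/80-high tissue the sums of the kidneys also differed. For 21 of the 24 genes that fell, kidney 3 had the lowest F4/80-high sum, and for 18 of them kidney 2 had the highest. These ranks were not counted over all genes called lower, so they are not a trait shown for these genes alone. The 2 libraries of a kidney could also be far apart. Gpx3 was at 3128 and 26777 CPM in the 2 F4/80-high libraries of kidney 1, at 26742 and 22794 CPM in those of kidney 2 and at 1939.6 and 8605 CPM in those of kidney 3. The sum for kidney 1 therefore depends on which library is used: 1 lies in the range of kidney 3 and the other at the level of kidney 2. For Nqo1 the libraries were at 11.7 and 15.6 CPM in kidney 1, 25.3 and 11.4 CPM in kidney 2 and 10.4 and 7.31 CPM in kidney 3, and those of kidneys 1 and 2 overlapped. Proximal tubule markers summed to 3067, 6861 and 889 CPM in F4/80-high tissue of kidneys 1, 2 and 3, and macrophage markers to 3116, 3289 and 7462 CPM. Their part in the spread among kidneys was not tested.

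Other genes of the same pathways, none of them among the 40, were counted in 5 lists. Of 26 further glutathione enzymes and transporters, 17 fell (65.4%, against 19.5% of all genes) and 4 rose (15.4%, against 19.7%) in F4/80-high against non-cystic regions, with a median log2 fold change of -1.11, against 0.04 for all genes. Ggt1, the surface gamma-glutamyltransferase that opens glutathione breakdown, fell by 3.34 ± 0.45 (adjusted p = 0.000632), and Gstz1, a glutathione transferase of tyrosine breakdown, by 2.73 ± 0.38 (adjusted p = 0.000666). The mitochondrial carrier Slc25a10 fell by 2.66 ± 0.32 (adjusted p = 0.000458) and the aminopeptidase Anpep by 1.45 ± 0.20 (adjusted p = 0.000640). In the further NRF2 pathway and target genes, 12 of 25 tested (48%) fell and 4 (16%) rose, with a median of -0.41, among them Osgin1 (-2.59 ± 0.25, adjusted p = 0.000102), the malic enzyme Me1 (-2.55 ± 0.31, adjusted p = 0.000362), the transporter Abcc2 (-2.12 ± 0.36, adjusted p = 0.00215) and the sugar dehydrogenase Ugdh (-1.33 ± 0.22, adjusted p = 0.00139).

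Of 19 further selenoproteins and selenium factors, 8 (42.1%) fell and 3 (15.8%) rose, with a median of -0.44, where 19.5% of all genes fell and 19.7% rose. Sephs2, which makes the selenium donor, fell by 2.13 ± 0.27 (adjusted p = 0.000384) and Selenot by 1.06 ± 0.16 (adjusted p = 0.00110), while Selenon, a selenoprotein of the endoplasmic reticulum, rose by 2.67 ± 0.41 (adjusted p = 0.00106). Lrp2, the megalin receptor that takes up selenoprotein P and is itself a proximal tubule marker, fell by 2.89 ± 0.44 (adjusted p = 0.00108). Of 19 further thioredoxin and glutaredoxin family genes, 5 rose and 5 fell, 26.3% each, with a median of 0.04, the same as for all genes, and these shares are near the background. The mitochondrial genes Glrx5 (-1.41 ± 0.20, adjusted p = 0.000795) and Msrb2 (-1.15 ± 0.20, adjusted p = 0.00181) fell, and Msrb3 (2.19 ± 0.47, adjusted p = 0.00535) and Txndc5 (0.70 ± 0.16, adjusted p = 0.00648) of the endoplasmic reticulum rose. Of 14 tested genes of superoxide and redox defence, 6 (42.9%) rose and 4 (28.6%) fell, with a median of 0.47. Apoe rose by 4.32 ± 0.42 (adjusted p = 0.000115) and the xanthine dehydrogenase gene Xdh by 0.94 ± 0.21 (adjusted p = 0.00664), while Ccs, the copper chaperone of SOD1, fell by 1.78 ± 0.27 (adjusted p = 0.000978) and Sesn2 by 1.20 ± 0.15 (adjusted p = 0.000384). In F4/80-low against non-cystic regions none of the genes of the 5 lists was called by edgeR, and at an unadjusted p below 0.05 the glutathione list had 1, the thioredoxin list 1, the selenoprotein list 2, the NRF2 list 1 and the redox defence list 3.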

How the data were processed

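RNA from microdissected mouse kidney tissue was sequenced in 18 libraries, and the authors deposited 1 table of raw counts per gene, with no normalization. Per the submitters' processing notes, FastQC 0.11.9, fastp 0.20.1 and HTSeq 0.11.0 were used with the build mm10 or GRCm38, with roles not stated, and for the aligner, the annotation release and the strandedness of counting the sources used here give nothing. The 40 genes, the other lists and the tests were chosen with earlier results of these data known.

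The 2 libraries of each kidney and region type were summed to 9 sums, and the counts were tested in edgeR 4.0.16 (R 4.3.3) with filterByExpr, TMM scaling, robust quasi-likelihood fits and the kidney as a block, leaving 4 residual degrees of freedom. P-values were adjusted over all 16034 genes tested (Benjamini-Hochberg, 0.05), which hold 99.8% of counts. Identifiers without a symbol, 50 in number, held 0.000726% of counts. Standard errors were worked back from the log2 fold change and the F statistic. The labels give each region's kidney, which is where the pairing comes from. Deviations of regions of 1 kidney correlated at 0.00632 to 0.112 in kidney 1, 0.108 to 0.275 in kidney 2 and -0.154 to 0.104 in kidney 3. With the kidney as a block, p-values measure how region differences vary over these kidneys, with the spread moderated over genes. Nothing states that the kidneys came from separate mice. In no kidney and region type did the 2 libraries agree within sampling noise, and other pairs were not compared.

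Values per kidney are given for called genes whose log2 CPM averaged 3 or more, for NRF2-related genes and metallothioneins, and for up to 2 uncalled genes per role. Of each further pathway list, up to 4 genes with the smallest p in F4/80-high against non-cystic regions are named. Gene positions are GENCODE M21 on GRCm38, and upstream sequences are RefSeq, GRCm38.p6. Alternatives covered scaling, filter, DESeq2 1.42.0, limma 3.58.1, single libraries, the block, and leaving out each kidney or library.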

Additional observations from a re-analysis of the deposited data

Results flagged for a closer look

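In 8 of 117 groups of 6 libraries, a single library lay far from the others by Dixon's test. Among independent libraries chance does this in about 1 in 20 groups. Here each kidney gave 2 libraries of a group and all genes share the same libraries, so that rate need not hold. Kidney 2 library 1 of F4/80-high tissue was high for both metallothioneins, at 843 CPM for Mt1 and 241 CPM for Mt2. Nfe2l2 was high in kidney 2 library 2 of F4/80-low (108 CPM) and of non-cystic tissue (105 CPM). Prdx2 was low in F4/80-low kidney 1 library 2 (266 CPM) and stood apart in non-cystic kidney 3 library 1 (371 CPM). Gsr was low in F4/80-high kidney 3 library 1 (16.4 CPM), and Srxn1 was high in non-cystic kidney 2 library 1 (45.4 CPM).

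For 12 genes, both libraries of a region in 1 kidney lay on one side of the compared region and in another kidney on the opposite side. The difference between kidneys was not tested. Such genes were not counted over all genes tested, so this is not a trait shown for these genes alone. For F4/80-low minus non-cystic tissue, the mean CPM difference of Gpx1 was -3457 in kidney 1 and 4163 in kidney 3, and that of Gpx4 was -424 in kidney 1 and 212 in kidney 3. Prdx6 differed by -58.0 in kidney 1, -29.2 in kidney 2 and 59.0 in kidney 3. Txn1 differed by -57.3 in kidney 1 and 79.4 in kidney 3, and Txnrd2 by -10.6 in kidney 1 and 5.46 in kidney 3. Gclc differed by -9.93 in kidney 1 and 35.8 in kidney 3, Nqo1 by -31.5 in kidney 1 and 52.7 in kidney 3, and Msra by -123 in kidney 1 and 135 in kidney 3. The opposite order appeared for Gpx8, at 21.0 in kidney 1, 8.82 in kidney 2 and -6.63 in kidney 3, and for Nfe2l2, at 10.7 in kidney 1 and -2.38 in kidney 3. For F4/80-high minus F4/80-low tissue, Prdx2 differed by 31.0 in kidney 2 and -76.1 in kidney 3. For F4/80-high minus non-cystic tissue, Hmox1 differed by -29.4 in kidney 2 and 7.46 in kidney 3.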

How the results depend on the processing

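Each result was recomputed under 34 alternatives, and no called gene changed direction. Of the 30 genes called in F4/80-high against non-cystic regions 16 kept their call in all 34, as did 9 of 28 called against F4/80-low and 0 of 1 called in F4/80-low against non-cystic. In F4/80-high against non-cystic regions the number that fell, 24, ranged from 14 to 27 when 1 kidney or library was left out, with 14 without kidney 1. In F4/80-high against F4/80-low regions the 24 that fell ranged from 9 to 26, with 9 without kidney 1, and came to 15 with the libraries of replicate label 1 alone, while 8 rose with total-count scaling. The 1 gene that rose in F4/80-low against non-cystic regions, Gpx7, ranged from 0 to 1 on leaving out a kidney or library, and 0 were called with limma voom, with the 2 region types alone, and with replicate label 1 or 2 alone. Total-count scaling, which shifts all genes by 0.61 against non-cystic and 0.48 against F4/80-low regions, turned the direction of uncalled genes. Past the threshold it turned Mt1 in F4/80-high against non-cystic regions (0.59) and Prdx2 in F4/80-high against F4/80-low regions (0.46). Without a call it turned Keap1, Hmox2, Prdx2, Hmox1 and Txn1 (0.07 to 0.40) against non-cystic regions, Keap1, Hmox2, Hmox1 and Prdx4 (0.02 to 0.30) against F4/80-low regions, and Nqo1, Txn2, Txnrd1, Prdx6 and Selenop (0.03 to 0.10) in F4/80-low against non-cystic regions. Without the kidney block, 4 genes rose and 26 fell in F4/80-high against non-cystic regions. The replicate labels share only a number (correlations of -0.166 to 0.159), and with them as a further block on 18 libraries 6 rose and 28 fell. Causes of these changes were not tested. With 3 kidneys and 4 residual degrees of freedom, intervals of single genes stay wide, and Gpx7 is limited by few reads in non-cystic tissue.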
